A study of Mus musculus with 6 samples.

Results

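The genes that encode subunits of the 3 nuclear RNA polymerases were followed in a chromatin immunoprecipitation and sequencing (ChIP-seq) study of mouse adrenal glands. They were taken as every symbol that starts with Polr1, Polr2 or Polr3, which gave 28 of the 12718 genes in the deposited tables. By symbol, 5 belong to RNA polymerase I (Pol I, Polr1a to Polr1e), 13 to RNA polymerase II (Pol II, Polr2a to Polr2m) and 10 to RNA polymerase III (Pol III, with symbols that start with Polr3). The antibody recognised the N-terminal domain of RPB1, the largest subunit of Pol II, which Polr2a itself encodes. The values are therefore the amount of Pol II found on each subunit gene, not the amount of its RNA or protein. Glands came from 3 wild-type (WT) mice and 3 mice lacking both copies of Armc5 (Armc5(-/-), called knockout here), all female, of the mixed strain 129 sv X CD1 and aged 10 to 14 months. The labels give 6 different mouse numbers, so each library was taken as a separate animal, with n = 3 per genotype.

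Pol I transcribes the large ribosomal RNA precursor, Pol II transcribes the protein-coding genes, and Pol III transcribes transfer RNAs, 5S ribosomal RNA and other short RNAs. All of them are built on a pair of large catalytic subunits, a small set of subunits common to all, and subunits of their own, and every subunit gene is itself transcribed by Pol II. ARMC5 is known as a substrate adaptor of a CUL3 ubiquitin ligase that acts on RPB1, so Polr2a encodes both the protein measured here and a known substrate of the deleted factor.

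Each library gave read counts over 3 regions of every gene, around its transcription start site (TSS), along its body and around its transcription end site (TES). Summed counts ran from 14511177 to 28190157 per library, and TSS counts from 1133364 to 3406223. The lowest totals were those of knockout replicate 1 and of the first and second WT replicates. The predicted gene Gm10800 took 2.67% to 25.1% of a library's TSS counts. All 9 cortex markers and all 6 medulla markers looked for were measured. In WT gene body counts per kb, the cortex markers had a median at the 99.3 percentile, with Mc2r the lowest at 37.4. The medulla markers had a median at the 79.1 percentile, with Slc18a1 the lowest at 47.1. Summed marker levels in scaled gene body counts (CPM, reads scaled to a common library total) overlapped between genotypes for cortex (2574 to 6158 in WT, 3978 to 4955 in knockout) and medulla (242 to 464 and 325 to 873). The largest part of the cortex sum was Scarb1, with means of 2159 CPM in WT and 2280 CPM in knockout. Of the 9 cortex markers 6 had a higher mean in knockout, and 4 without knockout replicate 2. Star, Cyp11a1 and Cyp11b1 had lower means in knockout. All 6 medulla markers had a higher mean in knockout, and 5 of 6 still did without knockout replicate 2, the library at 873. Summed levels of the 2 measured capsule and fibroblast markers, Pdgfra and Col1a1, were 84.6 to 253 in WT and 61.6 to 73.7 in knockout. The part of these differences in the results below was not tested. In a whole gland, a different mix of cells and a different amount of polymerase per cell cannot be told apart.

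Polr2a lies on the minus strand at chr11:69733997-69758633 (GRCm38.p6), with no annotated neighbour within 1 kb. Its promoter is shown because its scaled TSS levels in the knockout libraries all lay below those in WT, as did those of Polr2c further on, while the raw counts, which follow library depth, overlapped for both. The sequence is from RefSeq (GRCm38.p6, chr11:69758584-69758883, minus strand, 250 bases before to 50 after the annotated start), written 5′ to 3′. Capitals mark matches to TATAAA, the core of a TATA box, and to GGGCGG, a GC box, searched on both strands.
Polr2a promoter: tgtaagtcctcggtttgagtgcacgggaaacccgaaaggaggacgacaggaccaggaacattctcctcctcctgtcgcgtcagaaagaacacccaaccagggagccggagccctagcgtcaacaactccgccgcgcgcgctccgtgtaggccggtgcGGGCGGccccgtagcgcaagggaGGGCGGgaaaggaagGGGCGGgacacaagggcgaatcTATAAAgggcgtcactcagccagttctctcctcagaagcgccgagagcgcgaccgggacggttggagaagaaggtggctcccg
It holds 1 TATAAA and 3 GGGCGG matches, with every GC box before the TATAAA. Of 9911 promoters in the same table, 6.60% hold TATAAA and 66.3% hold GGGCGG. A match is a string of letters and not a shown binding site.

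At its TSS Polr2a carried more Pol II than almost any other gene of the WT gland. The TSS level, in CPM scaled with the TMM method, was 657, 553 and 661 in WT replicates 1 to 3 and 482, 460 and 503 in the knockout replicates. The lowest WT library stood above the highest knockout library, so the groups did not overlap. The WT mean was 624 ± 61.1 CPM (SD, n = 3) and ranked 6 of 12718 genes. The 5 genes above it were all predicted Gm genes. Leaving out symbols of Gm with a number and symbols that end in Rik, it ranked 1 of 12233 genes. In the knockout the mean was 482 ± 21.6 CPM and ranked 7 of these 12233. The log2 fold change was -0.37 ± 0.17 (SE), with an unadjusted p of 0.0547 and an adjusted p of 0.909 in edgeR's quasi-likelihood test with Benjamini-Hochberg adjustment over all tested genes, so the difference did not pass the threshold of 0.05. These levels rest on 535 to 2066 reads per library.

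In the gene body, a single WT library set the mean of Polr2a. The gene body level was 277, 224 and 920 CPM in WT, against 188, 340 and 386 CPM in knockout. WT replicate 3 stood at 3.32 times the median of the other 5 libraries, and of 12714 tested genes 3 stood higher above theirs in that library (Cwc22, Cbr3 and Gm15737). Among the other subunit genes this ratio of WT replicate 3 to the rest lay between 0.736 (Polr3g) and 1.60 (Polr2j), so that Polr2a stood alone in the set. The WT mean was 473 ± 387 CPM and the knockout mean 304 ± 104 CPM, with a log2 fold change of -0.64 ± 0.53 and an edgeR adjusted p of 0.934. Without WT replicate 3 the sign turned, to 0.28 with an edgeR adjusted p of 0.629. The ratio of the highest to the lowest library was 4.90, ranking 62 among all tested genes, whose median was 1.55. The 3 deeper libraries held the 3 highest gene body levels. Within the deeper libraries WT stood at 920 against 340 and 386 CPM in knockout, and within the shallower ones at 277 and 224 against 188 CPM. With depth class as a covariate the log2 fold change was -0.88, with an edgeR adjusted p of 0.191, and over all alternatives the adjusted p ran from 0.191 to 1.

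**Figure D1:**
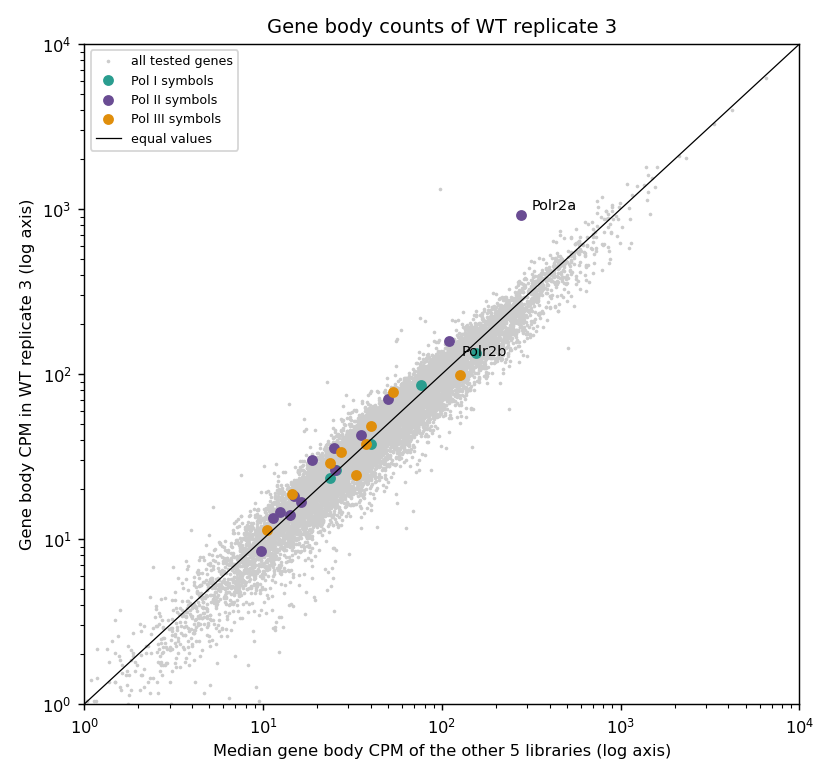
Gene body level (TMM-scaled CPM, log axes) of WT replicate 3 against the median of the other 5 libraries. Grey points are all tested genes, coloured points 27 subunit genes by polymerase, and the line marks equal values. Polr2a lies at 920 CPM against a median that is 3.32 times lower, while the other subunit genes drawn stay within the cloud.

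At the TES the order of the genotypes was the opposite for Polr2a. The TES level was 106, 79.4 and 74.8 CPM in WT, against 104, 101 and 118 CPM in knockout. WT replicate 1 fell within the knockout range, so the groups overlapped. The means were 86.9 ± 17.1 and 108 ± 8.87 CPM, with a log2 fold change of 0.31 ± 0.23 and an edgeR adjusted p of 0.940. The ratio of TSS CPM to gene body CPM, each scaled within its own region, is not a ratio of raw reads. It was 2.37, 2.48 and 0.719 in WT and 2.57, 1.36 and 1.30 in knockout, again with WT replicate 3 apart from the other WT libraries. Its log2 fold change was 0.02 ± 0.51 and became -0.55 without WT replicate 3 and -0.29 without knockout replicate 1. The TES to gene body ratio was 0.274 ± 0.167 in WT and 0.387 ± 0.146 in knockout, with a log2 fold change of 0.73 ± 0.46 (edgeR adjusted p = 0.843) that became -0.02 without WT replicate 3.

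**Figure D2:**
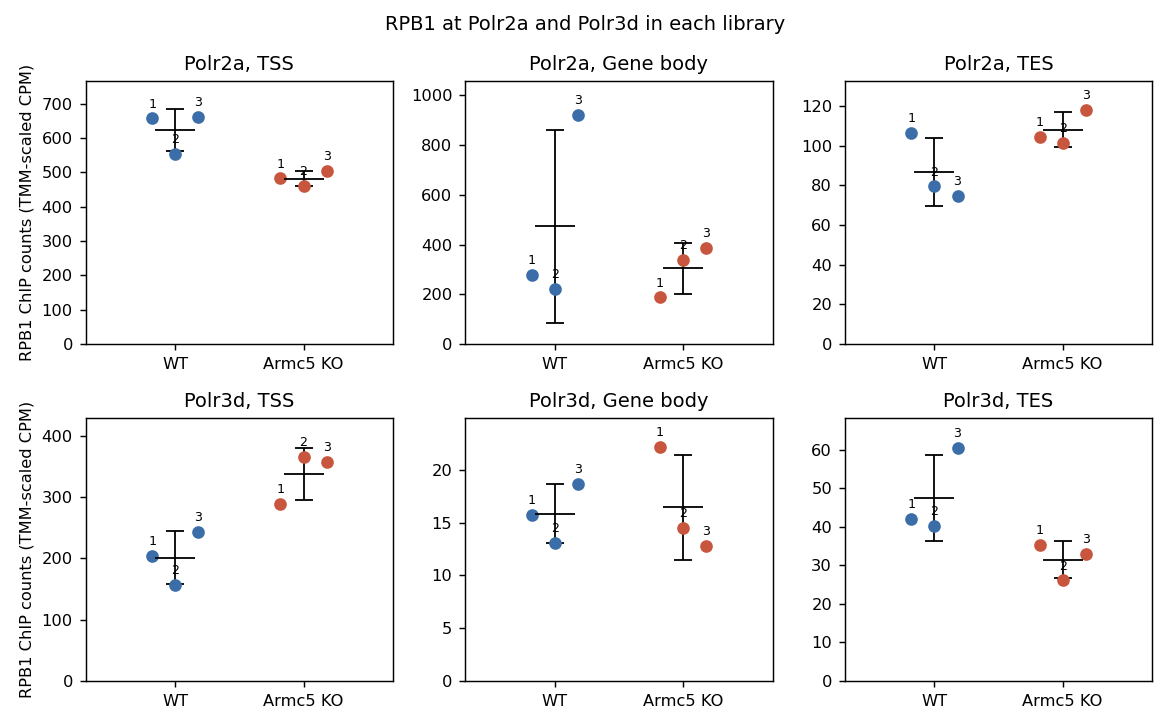
Level of RPB1 (TMM-scaled CPM) at Polr2a and Polr3d in each library, by region. Points are libraries with their replicate numbers, horizontal bars are group means and whiskers are SD (n = 3). At the TSS the knockout libraries lie below WT for Polr2a (460 to 503 against 553 to 661) and above WT for Polr3d (289 to 366 against 156 to 243).

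Subunit genes of the same enzyme did not carry equal amounts of Pol II in WT glands. Levels were compared between genes as gene body CPM per kb of the annotated gene. The median over the 28 genes was 2.31 CPM per kb, and 22 of them stood above the median of 1.73 over 12384 genes with a length. All 13 Pol II genes were above it (median 3.42), as were 3 of 5 Pol I genes (median 2.05) and 6 of 10 Pol III genes (median 1.82). The classes also differed in median gene length, at 6.26 kb, 27.1 kb and 16.1 kb in turn, beside 23.1 kb over all genes. The part of length in the values per kb was not tested. Per kb, Polr2a had the highest WT mean of the set. Its values were 11.2, 9.07 and 37.3 in WT and 7.62, 13.8 and 15.7 in knockout. Below it stood among others Polr2i with a WT mean of 9.96 ± 4.14 CPM per kb and Polr1c with 8.37 ± 2.06, which did not differ from each other beyond their spread. Polr2a stood above both within WT replicate 1 (11.2 against 10.3 and 9.94) and WT replicate 2 (9.07 against 5.68 and 6.04). The size of its lead in the mean rests on WT replicate 3 (37.3 against 13.9 and 9.12). In knockout Polr2i had the higher mean, 13.2 ± 1.99 against 12.4 ± 4.20 CPM per kb for Polr2a.

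The genes of the 2 catalytic subunits of one enzyme stood far apart for Pol II. Polr2b, which encodes the RPB2 subunit that forms the active centre with RPB1, had 2.82, 2.40 and 4.08 CPM per kb in WT, all below the lowest WT value of Polr2a, 9.07. The corresponding Pol III genes were close to each other, with 1.21 ± 0.0778 for Polr3a and 1.17 ± 0.207 for Polr3b. In Pol I, Polr1a had 2.05 ± 0.159 and Polr1b, the lowest gene of that enzyme, had 0.977 ± 0.0855. The lowest of the whole set was Polr3g at 0.936 ± 0.306. Polr3g encodes the RPC7 subunit, and its paralog Polr3gl, whose product takes the same place in the enzyme, stood higher at 2.14 ± 0.163 with no overlap between their WT libraries. Among the 5 genes for subunits held by all 3 polymerases (Polr2e, Polr2f, Polr2h, Polr2k and Polr2l) the median was 3.05, from 2.30 for Polr2f to 7.82 for Polr2l.

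The TSS level was also set against gene body density, with no test between classes. TSS CPM divided by gene body CPM per kb had a WT median of 29.6 over the 28 genes and 27.3 over all genes with a length. It was 41.1 for Pol III genes, of which 8 of 10 exceeded the median of all genes, 22.4 for Pol II genes (5 of 13) and 27.8 for Pol I genes (3 of 5). Polr3c, encoding the initiation subunit RPC3, had the highest WT mean with 86.6 ± 15.1. Next was Polr3g with 84.9 ± 38.0, which did not differ from it beyond the spread. In knockout Polr3g had the higher mean, 114 ± 26.7 against 81.8 ± 9.07 for Polr3c. The start of Rnf115 on the opposite strand is 172 bp from that of Polr3c. Rnf115 had a WT TSS level of 130 ± 32.5 CPM, and the part of shared reads was not tested. In plain CPM the TSS to gene body ratio, which also falls with gene length, was highest in each class for Polr1c (5.57 ± 1.97), Polr2k (15.2 ± 3.88) and Polr3d (12.6 ± 0.619). Among Pol I genes it was lowest for Polr1a (0.604 ± 0.198) and among Pol II genes for Polr2b (0.904 ± 0.356). The Pol II genes were short, with a median length of 6.26 kb against 23.1 kb over all genes. The part that overlapping windows play in short genes was not tested.

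**Figure D3:**
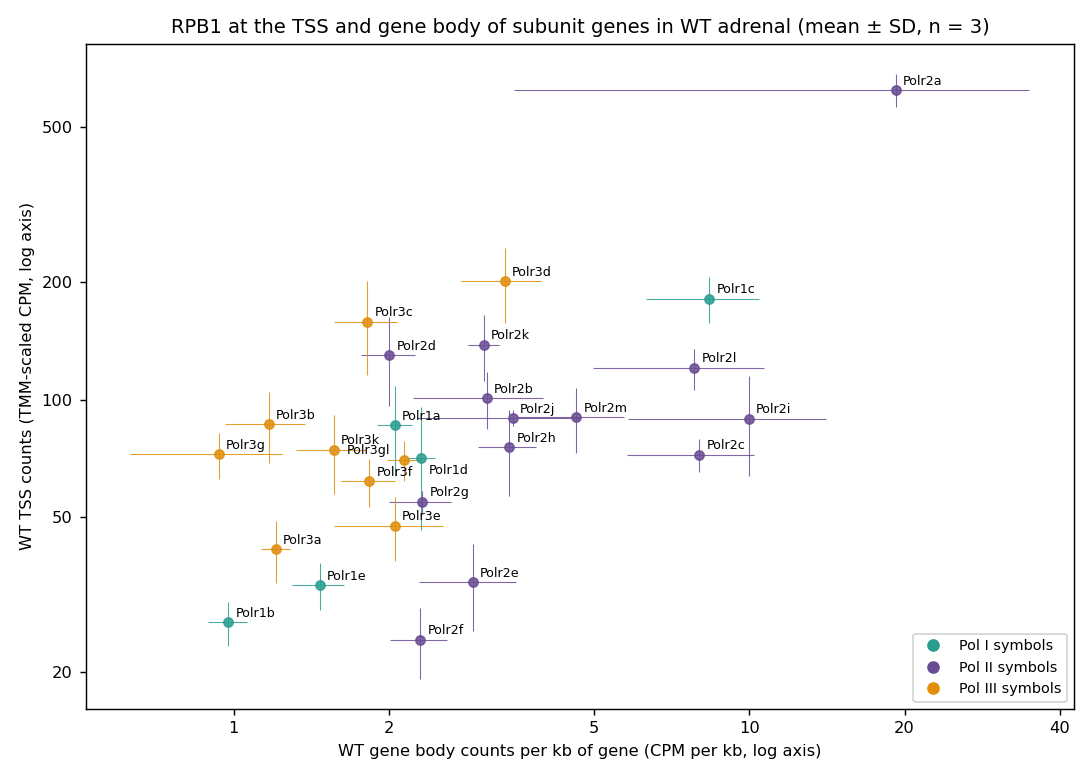
TSS level (TMM-scaled CPM) against gene body level per kb of gene (CPM per kb) in WT, both on log axes. Points are means and lines SD over 3 WT libraries, for 27 subunit genes coloured by polymerase. Polr2a stands alone at 624 CPM and 19.2 CPM per kb, while the other genes drawn lie at or below 201 CPM and at or below 9.96 CPM per kb.

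Many of these genes stand beside another gene, and the windows can then share reads. Of the 28 genes, 21 have an annotated neighbour within 1 kb and 10 overlap one. At least 10 have the start of a gene on the opposite strand within 1 kb. Distances between starts were known only where both genes had a promoter sequence at hand, as 22 of the 28 did. The starts of Polr1c and Yipf3 are 35 bp apart, those of Polr2f and 1700088E04Rik 74 bp, and those of Polr2l and Tspan4 83 bp. Polr2k overlaps Spag1 by 784 bp. Polr2i, which is 1.31 kb long, overlaps Tbcb by 124 bp and Ovol3 by 91 bp. Values of these genes may therefore be shared with their neighbours to an unknown extent.

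Deletion of Armc5 was then compared with WT for all subunit genes in each region. None of the 28 genes passed the edgeR threshold in any region. By edgeR's quasi-likelihood test 0 were called at the TSS, where 0.339% of all tested genes were called, 0 in the gene body, where 0.252% were, and 0 at the TES, where 0.915% were. At an unadjusted p under 0.05 TSS counts gave 2 (5.57% of all genes), gene body counts 0 (5.05%) and TES counts 1 (6.85%). DESeq2 called 1 at the TSS (Polr3d), where it called 0.867% of all genes to which it gave an adjusted p, 0 in the gene body (1.41% of all) and 0 at the TES (0.872%). With limma-voom 0 were called in each region, where 0.284%, 0.267% and 0.923% of all genes were. The median log2 fold change was 0.03 for both TSS and gene body and -0.04 for the TES, beside -0.01, -0.02 and -0.02 over all tested genes. Values above 0 were found for 16, 15 and 13 of the 28 genes in turn.

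Counts of genes whose groups did not overlap stood beside the same share over all genes. At the TSS 1 of the 28 genes was higher in every knockout library (Polr3d), as were 6.47% of all tested genes, and 2 were lower (Polr2a and Polr2c), as were 4.93%. In the gene body 0 were higher (6.51% of all) and 1 was lower (Polr3a, 3.87% of all). At the TES 1 was higher (Polr3gl, 6.69% of all) and 3 were lower (Polr2j, Polr2k and Polr3d, 4.83% of all). Polr3d was the gene apart in 2 regions, for which no share over all genes is given here. Scaling every region by the library's counts over all 3 regions moved the median over all genes to 0.24 at the TSS, with Polr2a at -0.13, Polr2c at -0.30 and Polr3d at 0.97, so these changes are relative to the scaling used.

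**Figure D4:**
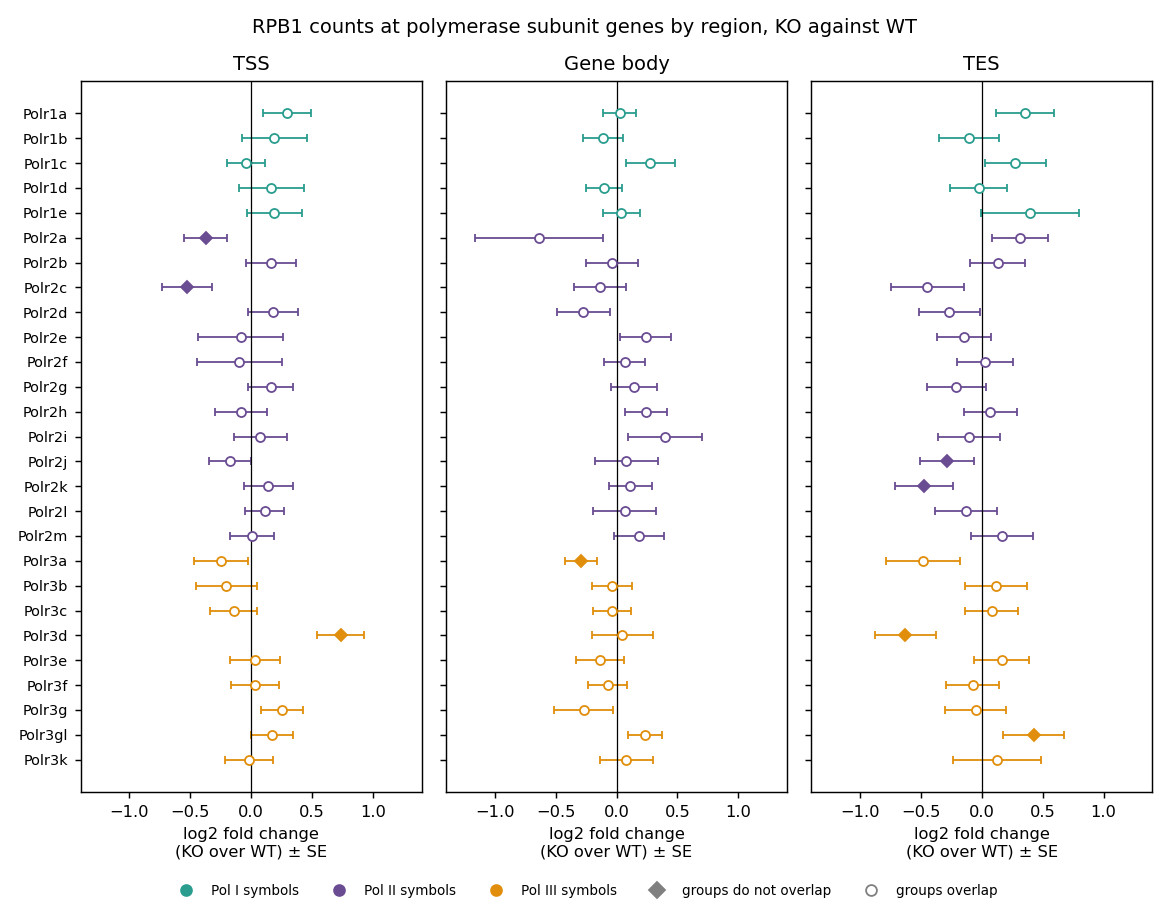
Log2 fold change of knockout over WT with its SE for 27 subunit genes at the TSS, gene body and TES. Filled diamonds mark genes whose knockout libraries do not overlap the WT libraries, open circles the others, and colours the polymerase. Most values lie near 0, with Polr3d at 0.73 (TSS) and -0.63 (TES) and Polr2a at -0.64 (gene body) the farthest out.

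Polr2c had the lowest fold change of the whole set at the TSS. Polr2c encodes RPB3, which pairs with RPB11 (Polr2j) in the platform on which the enzyme is assembled. Its promoter is given from RefSeq (GRCm38.p6, chr8:94857200-94857499, plus strand), with capitals on matches to TATAAA and to CCGGAAG, an ETS factor core. The CCAAT box was marked in the same way.
Polr2c promoter: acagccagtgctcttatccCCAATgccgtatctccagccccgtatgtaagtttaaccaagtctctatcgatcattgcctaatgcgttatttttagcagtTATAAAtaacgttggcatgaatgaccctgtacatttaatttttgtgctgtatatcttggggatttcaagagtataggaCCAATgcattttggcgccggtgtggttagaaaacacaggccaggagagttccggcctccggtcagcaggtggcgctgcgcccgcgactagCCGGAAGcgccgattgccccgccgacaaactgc
Its TATAAA lies farther from the annotated start than that of the Polr2a promoter above. TSS levels of Polr2c were 76.2, 64.1 and 76.1 CPM in WT, against 57.4, 38.3 and 56.3 CPM in knockout, with every knockout library below every WT library. The means were 72.2 ± 6.97 and 50.7 ± 10.7 CPM, the log2 fold change -0.53 ± 0.21 and edgeR's adjusted p 0.750. In the gene body its log2 fold change was -0.13 ± 0.21 and at the TES -0.45 ± 0.30, both with overlapping groups. The TSS to gene body ratio gave -0.42 ± 0.28. Polr2c overlaps Dok4 by 415 bp at the end away from its start.

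The other Pol II genes had TSS log2 fold changes between -0.17 (Polr2j) and 0.18 (Polr2d), with overlapping groups. Polr2d encodes RPB4, which forms the stalk with RPB7 (Polr2g), and Polr2d was the lowest Pol II gene per kb in WT at 1.87, 2.28 and 1.85 CPM per kb. In the gene body Polr2i, which encodes the transcript cleavage and fidelity subunit RPB9, had the largest fold change above 0 of the set. Its levels were 13.5, 7.47 and 18.3 CPM in WT, against 15.0, 17.0 and 20.2 CPM in knockout, so that WT replicate 2 stood low and the groups overlapped. That low value rests on 89 reads over a gene of 1.31 kb. The log2 fold change of Polr2i was 0.40 ± 0.31 with an edgeR adjusted p of 0.934. Polr2h, which encodes the shared subunit RPB8, had 15.9, 13.0 and 16.8 CPM in WT, against 16.3, 18.4 and 19.3 CPM in knockout. These overlapped by knockout replicate 1 alone, and the log2 fold change was 0.24 ± 0.17 (edgeR adjusted p = 0.934).

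At the TES 8 of 13 Pol II genes had a log2 fold change below 0, with a median of -0.13 beside -0.02 over all genes. Polr2k encodes RPB12, a small zinc-binding subunit common to all 3 enzymes. Polr2k had TES levels of 47.3, 45.1 and 53.4 CPM in WT, against 40.6, 27.0 and 38.9 CPM in knockout. Every knockout library lay below WT, with a log2 fold change of -0.47 ± 0.24 and an edgeR adjusted p of 0.739. Polr2j had 55.6, 52.0 and 51.2 CPM in WT, against 44.5, 47.5 and 38.4 CPM in knockout, also without overlap, and a log2 fold change of -0.28 ± 0.22. The end of Lrwd1, on the opposite strand, lies 118 bp from the end of Polr2j. TES levels of Lrwd1 were 41.3 ± 6.10 CPM in WT and 32.4 ± 1.73 CPM in knockout. Its log2 fold change was -0.37 ± 0.25, and the part of shared reads was not tested. Polr2m, which encodes the Pol II-associated protein Gdown1, gave 0.00 ± 0.18 (TSS), 0.19 ± 0.20 (gene body) and 0.16 ± 0.26 (TES).

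For Pol I, the log2 fold changes were above 0 for 4 of 5 genes (TSS), 3 of 5 (gene body) and 3 of 5 (TES), and the groups overlapped for every gene in every region. Polr1a encodes the largest subunit of the enzyme. Its TSS levels were 78.9, 68.3 and 111 CPM in WT, against 95.7, 105 and 120 CPM in knockout, a log2 fold change of 0.29 ± 0.20 (edgeR adjusted p = 0.952). WT replicate 3 lay among the knockout libraries. The start of Ptcd3 on the opposite strand is 291 bp from that of Polr1a. TSS levels of Ptcd3 were close to these, 86.3 ± 22.6 CPM in WT and 107 ± 12.9 CPM in knockout. Its log2 fold change was 0.29 ± 0.20, and the part of shared reads was not tested. Polr1c, which encodes a subunit held by both Pol I and Pol III, had the highest TSS level of the class, 182 ± 24.2 CPM in WT, against 176 ± 7.38 CPM in knockout. Yipf3, with its start 35 bp away, had 180 ± 14.0 CPM in WT and 196 ± 21.5 CPM in knockout. The part of shared reads was not tested here either. Gene body levels of Polr1c were 41.0, 24.9 and 37.6 CPM in WT, against 40.1, 46.5 and 39.2 CPM in knockout, with WT replicate 2 low and a log2 fold change of 0.28 ± 0.20. Polr1b, the second catalytic subunit gene, gave 0.19 ± 0.27 (TSS), -0.11 ± 0.16 (gene body) and -0.10 ± 0.25 (TES).

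Polr3d had the largest fold change of the set at the TSS. It encodes RPC4, a Pol III subunit that acts with RPC5 (Polr3e) in initiation and termination, and lies at chr14:70438748-70443471 with the microRNA gene Mir320 38 bp away. TSS levels were 204, 156 and 243 CPM in WT, against 289, 366 and 357 CPM in knockout. All 3 knockout libraries stood above all 3 WT libraries. The means were 201 ± 43.7 and 337 ± 42.2 CPM, which is 1.66-fold on the fitted scale. The log2 fold change was 0.73 ± 0.19, with an unadjusted p of 0.00279 and an adjusted p of 0.298 in edgeR's quasi-likelihood test with Benjamini-Hochberg adjustment. DESeq2 gave an adjusted p of 0.0174 and edgeR with depth class as a covariate, a fit that called 1.25% of all genes, one of 0.0126, while the other alternatives gave values from 0.0787 to 1, so the call depends on the test. The values rest on 151 to 1336 reads per library.

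Elsewhere along Polr3d the pattern was another one. Gene body levels were 15.8, 13.1 and 18.7 CPM in WT, against 22.1, 14.5 and 12.8 CPM in knockout, which overlapped, with a log2 fold change of 0.05 ± 0.25. TES levels were 42.0, 40.2 and 60.3 CPM in WT, against 35.3, 26.1 and 32.9 CPM in knockout. Here every knockout library lay below every WT library, with means of 47.5 ± 11.2 and 31.4 ± 4.79 CPM, a log2 fold change of -0.63 ± 0.25 and an edgeR adjusted p of 0.469. These TES values rest on 41 to 138 reads per library.

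Among the other Pol III genes, Polr3a, which encodes the largest catalytic subunit, was the gene with the smallest p in the gene body. Its gene body levels were 42.9, 47.5 and 48.5 CPM in WT, against 37.5, 36.0 and 40.2 CPM in knockout. The groups did not overlap, and the log2 fold change was -0.29 ± 0.13 with an edgeR adjusted p of 0.934. Polr3gl had gene body levels of 32.5, 34.6 and 37.8 CPM in WT, against 37.7, 42.9 and 42.9 CPM in knockout, which met at knockout replicate 1 (log2 fold change 0.24 ± 0.14). At the TES of Polr3gl, levels were 154, 121 and 183 CPM in WT, against 217, 211 and 192 CPM in knockout. These did not overlap, and the log2 fold change was 0.43 ± 0.25 with an edgeR adjusted p of 0.857. Its paralog Polr3g gave 0.25 ± 0.17 (TSS), -0.27 ± 0.25 (gene body) and -0.05 ± 0.25 (TES), with overlapping groups in each.

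The distribution of Pol II along each gene was compared as the ratio of TSS or TES CPM to gene body CPM within a library. For the TSS ratio 0 of the 28 genes were called by edgeR's quasi-likelihood test, as were 0% of all genes, with 1 gene (Polr3d) at an unadjusted p under 0.05 (3.64% of all) and 0 called by limma, as over all genes. The Polr3d ratio was 13.0, 11.9 and 13.0 in WT and 13.0, 25.3 and 27.9 in knockout, so knockout replicate 1 stood with WT. Its log2 fold change was 0.73 ± 0.29 (edgeR adjusted p = 0.955), the same size as at its TSS alone. Groups were apart for Polr2i, 7.14 ± 1.16 in WT and 5.51 ± 0.293 in knockout, and for Polr2m, 2.61 ± 0.129 and 2.31 ± 0.182, so that 2 of the 28 genes were lower throughout (4.95% of all genes) and 0 higher (4.48%).

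For the TES ratio 0 of the 28 genes were called by edgeR's quasi-likelihood test, where 0.0158% of all genes were, with 2 at an unadjusted p under 0.05 (5.7% of all) and 0 called by limma, as over all genes. Both of these were lower in knockout. The Polr3d ratio was 2.67, 3.07 and 3.23 in WT and 1.59, 1.80 and 2.57 in knockout, without overlap, with a log2 fold change of -0.61 ± 0.27 (edgeR adjusted p = 0.839). The Polr2k ratio was 4.84, 4.89 and 6.28 in WT and 3.88, 2.96 and 3.81 in knockout, also without overlap, with -0.60 ± 0.27 and the same adjusted p in edgeR. Polr2e, encoding the shared subunit RPB5, had 7.98, 9.89 and 6.41 in WT and 6.11, 6.34 and 5.58 in knockout, a log2 fold change of -0.39 ± 0.23. Polr3e was higher (0.801 ± 0.0415 in WT and 0.991 ± 0.0862 in knockout). Without overlap, 4 of the 28 genes were lower (6.65% of all genes) and 1 higher (5.51%). By class, 5 of 5 Pol I genes and 4 of 13 Pol II genes had a log2 fold change of the TES ratio above 0, with medians of 0.10 and -0.20 beside -0.01 over all genes.

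Part of the gene body levels moved with library depth, as did the make-up of the TSS counts. Gm10800 took 10.9%, 25.1% and 11.7% of TSS counts in the shallower libraries (WT replicates 1 and 2, knockout replicate 1). It took 3.39%, 2.67% and 4.66% in the deeper ones (WT replicate 3, knockout replicates 2 and 3). The 28 genes took 0.294%, 0.226% and 0.290% of TSS counts in the shallower and 0.327%, 0.315% and 0.317% in the deeper libraries. Depth and these traits cannot be told apart here. In the gene body 13 of the 28 genes were higher in all 3 deeper libraries than in all 3 shallower ones, against 20.5% of all tested genes, and 3 were lower in all of them, against 20.6%. Among those 13 were Polr2a, 2b, 2c, 2e, 2f, 2h, 2i, 2j and 2m, and Polr3e, 3gl and 3k. The share of all gene body counts that fell on the 28 genes was 0.136%, 0.126% and 0.228% in WT and 0.130%, 0.153% and 0.162% in knockout. Polr2a alone made up 0.0947% in WT replicate 3. Without Polr2a the share of the other 27 genes was 0.109%, 0.105% and 0.134% in WT and 0.111%, 0.118% and 0.123% in knockout, so that the 3 deeper libraries still held the 3 highest shares. The deeper libraries held 1 WT and 2 knockout samples, and the part of depth in the genotype comparisons was not tested beyond the fit with depth class.

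Genes whose products work with the polymerases were read beside the subunits, and 0 of the 43 measured genes passed the threshold in any region in edgeR's quasi-likelihood test, DESeq2 or limma-voom. At an unadjusted p under 0.05, edgeR gave 1 for TSS counts (Gtf3c6), 0 for gene body counts and 1 for TES counts (Rprd1b), beside 5.57%, 5.05% and 6.85% of all tested genes. The lists were 4 measured subunits under other symbols (Twistnb, Cd3eap, Znrd1 and Crcp), 7 Pol I factors, 17 Pol III factors, and 15 factors of Pol II assembly or binding to the RPB1 C-terminal domain. Their median log2 fold changes at the TSS were -0.07, -0.05, 0.11 and -0.07 in turn, beside -0.01 over all genes. In the gene body they were 0.07, -0.07, -0.06 and -0.08, beside -0.02. At the TES they were 0.07, 0.13, -0.02 and -0.05, beside -0.02. Gtf3c6, which encodes a subunit of the Pol III factor TFIIIC, had TSS levels of 178, 138 and 190 CPM in WT, against 254, 218 and 256 CPM in knockout. These did not overlap, and the log2 fold change was 0.51 ± 0.17 with an edgeR adjusted p of 0.544. Gpn1, a GTPase that takes part in the nuclear import of Pol II, had gene body levels of 22.3, 24.1 and 26.1 CPM in WT, against 19.2, 18.4 and 20.2 CPM in knockout, a log2 fold change of -0.33 ± 0.15 (edgeR adjusted p = 0.934).

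Promoters of the set were close in composition to those of other genes. RefSeq promoters were at hand for 22 of the 28 genes, with a median GC content of 61.7% against 61.3% over 9911 promoters. CCGGAAG stood in 7 of the 22 promoters (31.8% against 18.2% of all) and CACGTG, an E-box, in 4 (18.2% against 10.2%). GGGCGG stood in 14 (63.6% against 66.3%) and CCAAT in 6 (27.3% against 38.7%). TATAAA stood in 2, the promoters of Polr2a and Polr2c printed above (9.09% against 6.60%), while TGACGTCA, the cAMP response element, stood in none (3.42% of all), nor did the NRF1 core (218 of the 9911 promoters). Both strands were searched and no motif was tested for enrichment.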

How the data were processed

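RPB1 ChIP-seq of adrenal glands gave, for each of 6 libraries, whole-number counts per gene over the TSS, gene body and TES, as deposited by the authors, with 12718 genes per region and no pooling. A joint table of 38154 rows held the same values stacked, with 0 cells that differed, and the authors' log2 CPM were not used. Per the submitters' processing notes the builds were GRCm38 and mm10 and the tools included BWA, MACS2, HOMER, limma, edgeR, Picard, Trimmomatic and bcl2fastq 2.20. Window widths, strand, input and the counting tool were not given in the sources used here.

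Each region was tested on all genes with edgeR 4.0.16 (R 4.3.3), using TMM scaling, a filter of at least 10 counts and a total of 15, and the quasi-likelihood test of genotype without a covariate. Benjamini-Hochberg adjustment ran over all tested genes, and the threshold was 0.05. All 28 subunit genes passed the filter in every region. Ratios were tested as a region by genotype interaction with library as block. The SE is the log2 fold change over the square root of F. The fits were tested on simulated data. Coordinates, lengths and promoters are from RefSeq (GRCm38.p6), in which 12384 symbols matched. Per-library values are given for Polr2a, the largest and smallest fold changes, the 3 smallest p-values per test, the extremes per class, and genes apart in 2 regions, while others were picked after their values were seen. The subunit genes and the lists were chosen with earlier results of these data known. Armc5 was not analysed here, and 1 subunit gene enters the counts but is not reported singly here.

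Alternatives were RLE scaling, table totals, joint scaling, no filter, 20 counts in 3 libraries, DESeq2 1.42.0, limma-voom (limma 3.58.1), limma on log2 ratios (prior count 2), a replicate block, the mouse number series, the depth class, and leaving out each library.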

Additional observations from a re-analysis of the deposited data

How the results depend on the processing

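The count of subunit genes called stayed at 0 in the gene body, at the TES and for both ratios under every alternative run. At the TSS it was 1, Polr3d, with DESeq2 (adjusted p = 0.0174) and with the depth class covariate in edgeR (adjusted p = 0.0126), fits that called 95 and 158 of all genes against 43, and 0 otherwise; the cause was not tested. Joint scaling moved the median log2 fold change of the 28 genes to 0.27 at the TSS and -0.14 at the TES, beside medians over all genes of 0.24 and -0.12 under the same scaling. Leaving out 1 library at a time, the log2 fold change of Polr2a ran from -0.97 to 0.28 in the gene body, from -0.55 to 0.34 for the TSS ratio and from -0.019 to 1.18 for the TES ratio. The sign turned without WT replicate 3 in all of these (0.28, -0.55 and -0.019) and without knockout replicate 1 for the TSS ratio (-0.29). At the TSS and TES Polr2a kept its sign under every alternative run, from -0.45 to -0.13 and from 0.20 to 0.48.

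Calls over all genes depended more on the fit, from 5 to 158 around 43 at the TSS, 0 to 179 around 32 in the gene body, 61 to 194 around 116 at the TES and 0 to 15 around 2 for the TES ratio, and stayed at 0 for the TSS ratio. The replicate block, with numbers that do not pair the samples, gave 100, 0 and 194 calls in the 3 regions, with 0 subunit genes among them. Deviations of same-numbered samples correlated at -0.58 to 0.44 over regions and numbers. TES counts under 50 reads in the shallowest library limit what can be seen there.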
